A study of Mus musculus with 8 samples.

Results

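The genes described here encode the ephrin, Slit-Robo and netrin guidance cues and their receptors in the embryonic mouse brain. Members were the protein-coding rows of the deposited table whose symbol is that of an Eph receptor, an ephrin, Slit1 to Slit3, Robo1 to Robo4, Ntn1, Ntn4, Ntn5, Unc5a to Unc5d, Dcc, Neo1 or Draxin, which gave 39 genes of 34866 in the table and of 21850 annotated as protein coding. Ntn3, which the same rule names, was not analysed here. The 39 were 9 EphA receptors, 5 EphB receptors, 5 ephrin-A and 3 ephrin-B ligands, 3 Slits, 4 Robos, 3 netrins, 6 netrin receptors and Draxin. All 39 passed the filter on low counts.

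RNA came from embryonic brain of a mouse model of hypoplastic left heart syndrome, a congenital defect with an underdeveloped left ventricle; the labels name no brain region. The 3 mutants were m/m for both Sap130, which encodes a subunit of the SIN3-HDAC corepressor complex, and Pcdha9, which encodes a protocadherin. The 5 littermate controls were +/m for both genes, so every control carried 1 mutant copy of each and no wild-type brain was in the comparison. Mutant 260-1 and controls 260-2 and 260-3 were at E13.5, and mutants 195-3 and 303-2 and controls 195-2, 195-6 and 303-3 at E14.5. The first number of each name is read here as a litter number, which the labels do not define, and litter 260 holds all E13.5 embryos.

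Growing axons steer by cues that their growth cones read through surface receptors. Ephrin-A ligands are tethered to the membrane by a lipid anchor and ephrin-B ligands span it, and both act on Eph receptor tyrosine kinases, mostly as repellents between touching cells. Slits are secreted repellents read by Robo receptors, and they keep axons from crossing or recrossing the midline. Netrin-1 attracts axons through Dcc and repels them through the Unc5 receptors, while Draxin is a secreted protein that binds Dcc and netrins. In the embryonic brain these systems pattern midline commissures, topographic maps and the routes of thalamic and cortical axons.

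Library totals lay between 36438282 and 47838448 counts. Levels are given as CPM, counts scaled to a common library size with TMM factors, which set library sizes so that most genes match. Sap130 was at 32.6 to 35.9 CPM in mutants versus 46.8 to 52.1 CPM in controls, and Pcdha9 at 9.47 to 18.2 and 14.9 to 24.6 CPM (log2 changes -0.54 and -0.66, edgeR adjusted p = 0.00291 and 0.0212). The neuronal list (10 genes, among them Tubb3 and Dcx) summed to 5905 CPM in mutant 260-1 against 6546 and 6833 in its stage's controls, and to 7413 and 6994 CPM in mutants 195-3 and 303-2 against 7422 to 7721 in theirs. Of these 10 genes 1 was called higher (Elavl4) and 3 lower (Dcx, Elavl3 and Rbfox3, log2 changes -0.42, -0.33 and -0.41), and the part of neuron content in the differences below was not tested. The libraries differed in the levels of marker genes of brain regions. The 16 telencephalon genes summed to 381 CPM in mutant 195-3 and 989.9 in mutant 303-2, against 1855 in mutant 260-1 and 1630 to 1981 CPM in the controls. Over all mutants 0 of the 16 were called higher and 1 lower (Bcl11b). In mutant 303-2 Lhx2, Emx1 and Emx2 lay above all E14.5 controls, and the rest of the list lay below them. The 14 Hox genes of hindbrain and cord summed to 0.407 CPM in mutant 260-1, with 5 of them at 0, and to 2.82 CPM in control 195-6, against 200.6 to 442 CPM in the other 6 libraries. The 12 midbrain and thalamus genes summed to 746 to 926 CPM in mutants versus 477 to 578 CPM in controls, with 10 of 12 called higher and 0 lower. In bulk tissue, fewer cells of a type and less RNA per cell cannot be told apart, and this holds for every difference below.

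**Figure D1:**
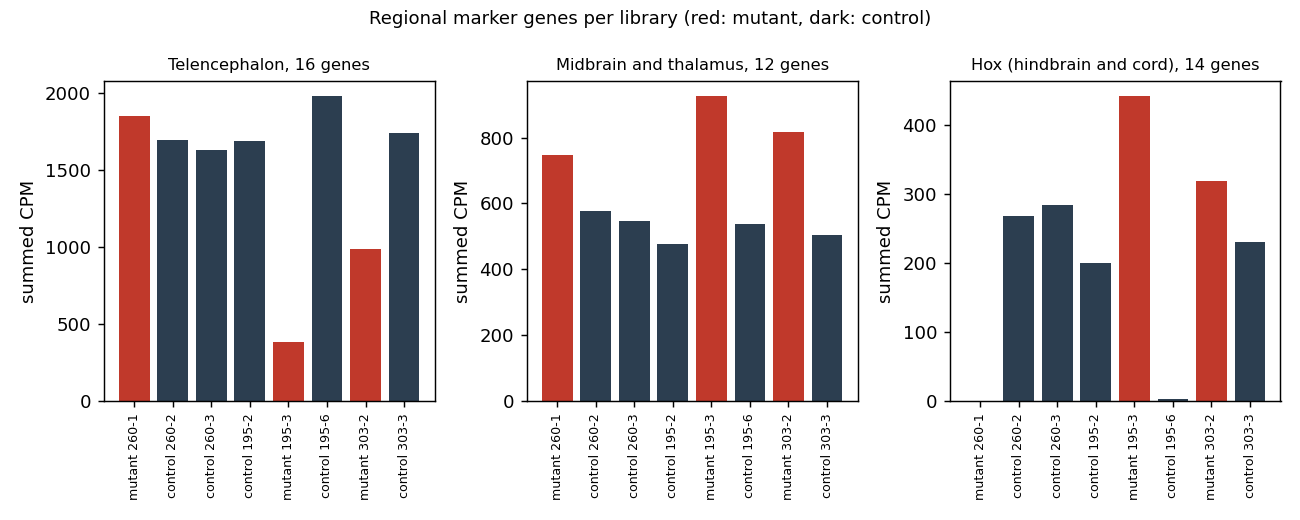
Summed CPM of 3 regional marker lists in each of the 8 libraries (red bars are mutants, dark bars controls). The telencephalon sum is low in mutants 195-3 and 303-2, at 381 and 989.9 CPM, the midbrain and thalamus sum is higher in every mutant than in any control, and the Hox sum is near 0 in mutant 260-1 and control 195-6.

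In control brains the guidance genes spanned a wide range of levels per length, measured as CPM per kb of the longest annotated transcript. Efnb3, a transmembrane ephrin that acts as a midline barrier for corticospinal axons, stood highest at 71.2 CPM per kb. Next came Neo1, a Dcc relative that also binds repulsive guidance molecules, at 37.1, Efnb2 at 35.6, Robo1 at 33.8, Efnb1 at 33.4, Draxin at 33.3, Ephb1 at 30.5 and Robo2 at 29.0 CPM per kb. From Neo1 to Robo2 the ranges of neighbours in this order overlapped over the control libraries. Among the ligands Slit1 was at 21.7, Ntn1 at 17.5 and Slit2 at 6.35 CPM per kb, and among netrin receptors Unc5a at 9.82, Dcc at 8.79 and Unc5d at 6.43. Robo3 was at 3.85 CPM per kb. Epha1 and Ntn5 were lowest, at 0.214 and 0.231 CPM per kb, with 22 to 37 and 3 to 29 counts per library, so little can be read from either. The coefficient of variation over the 5 controls of both stages was 1.35% for Unc5b and 1.88% for Draxin. It reached 45.1% for Robo3, 43.6% for Ntn5 and 42.6% for Slit1. For Robo3 the controls split by stage, at 29.5 and 27.8 CPM at E13.5 and 11.8 to 15.0 CPM at E14.5.

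**Figure D2:**
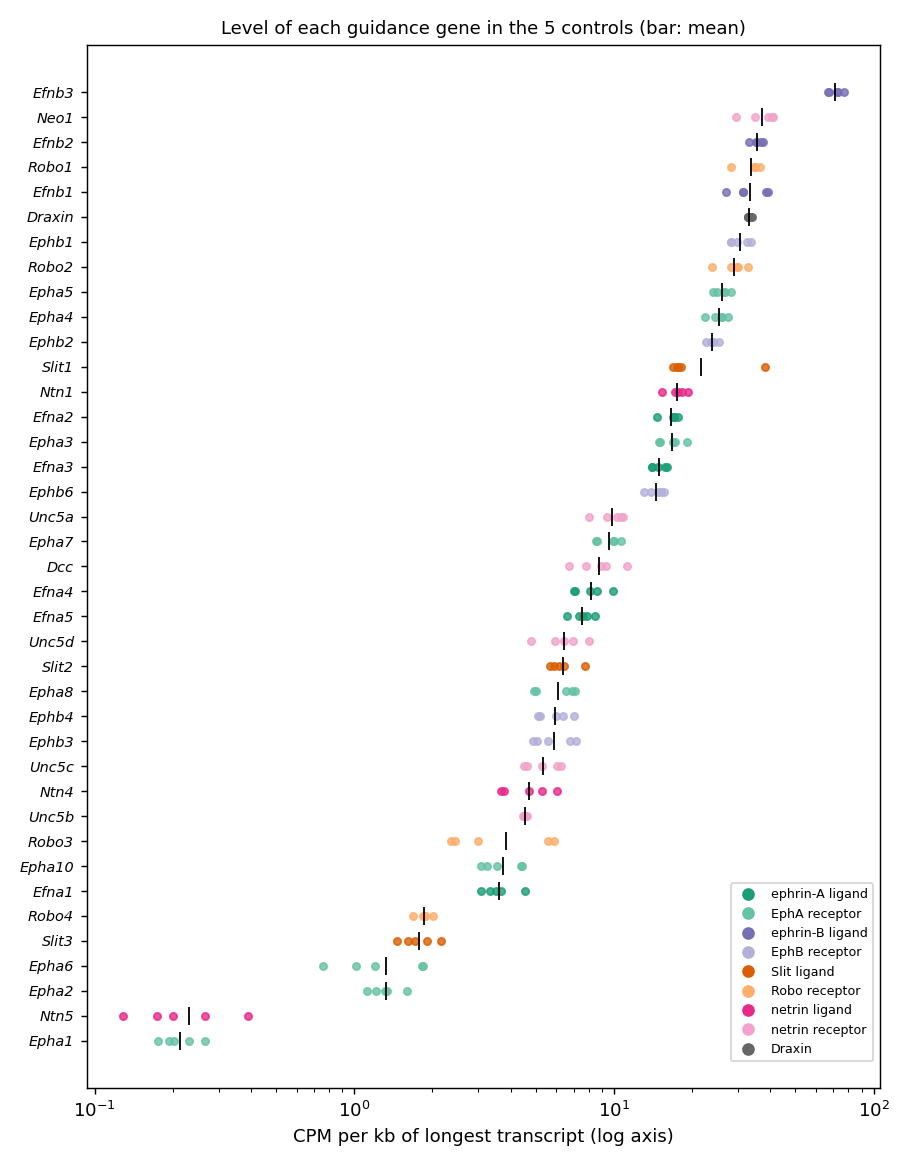
Level of the 39 guidance genes in the 5 control libraries, as CPM per kb of the longest transcript on a log axis (points are libraries, black bars their mean, colours the class). Levels run from 0.214 for Epha1 to 71.2 for Efnb3, and the single high Slit1 point is control 195-6.

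The comparison of mutants with controls asked whether guidance cues and receptors differ in the brains of this model. Of the 39 genes, 3 rose in mutants (Robo3, Slit2 and Epha2) and 4 fell (Unc5a, Draxin, Unc5d and Epha5) by edgeR's quasi-likelihood test with stage in the model, at a Benjamini-Hochberg adjusted p under 0.05 over all 17357 genes tested. This is 17.9% of the 39, against 20.6% of all genes tested, 10.9% higher and 9.74% lower, so the share called was near the background. Their median log2 change was -0.01, and that of all genes was also near 0 (-0.001). Robo3 stood above and Unc5a and Draxin below every control in all mutants, and Robo4 also stood above without passing the test. Over all genes 11.3% lay above and 8.61% below in this way. Signs matched in all 3 litters for 19 of the 39 and in 2 litters for the other 20. The share over all genes was not counted, so nothing is read from this about the guidance genes. With upper quartile scaling, which shifted the median of all genes to -0.05, the calls over all genes were 1240 higher and 2090 lower in place of 1885 and 1691, and those over the guidance genes 1 higher and 5 lower. DESeq2 called 3 higher and 7 lower, where it called 13.3% and 11.8% of all genes (25.1% in all), and the length and GC offset gave 6 higher and 3 lower, against 11.2% and 7.71% (18.9% in all).

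**Figure D3:**
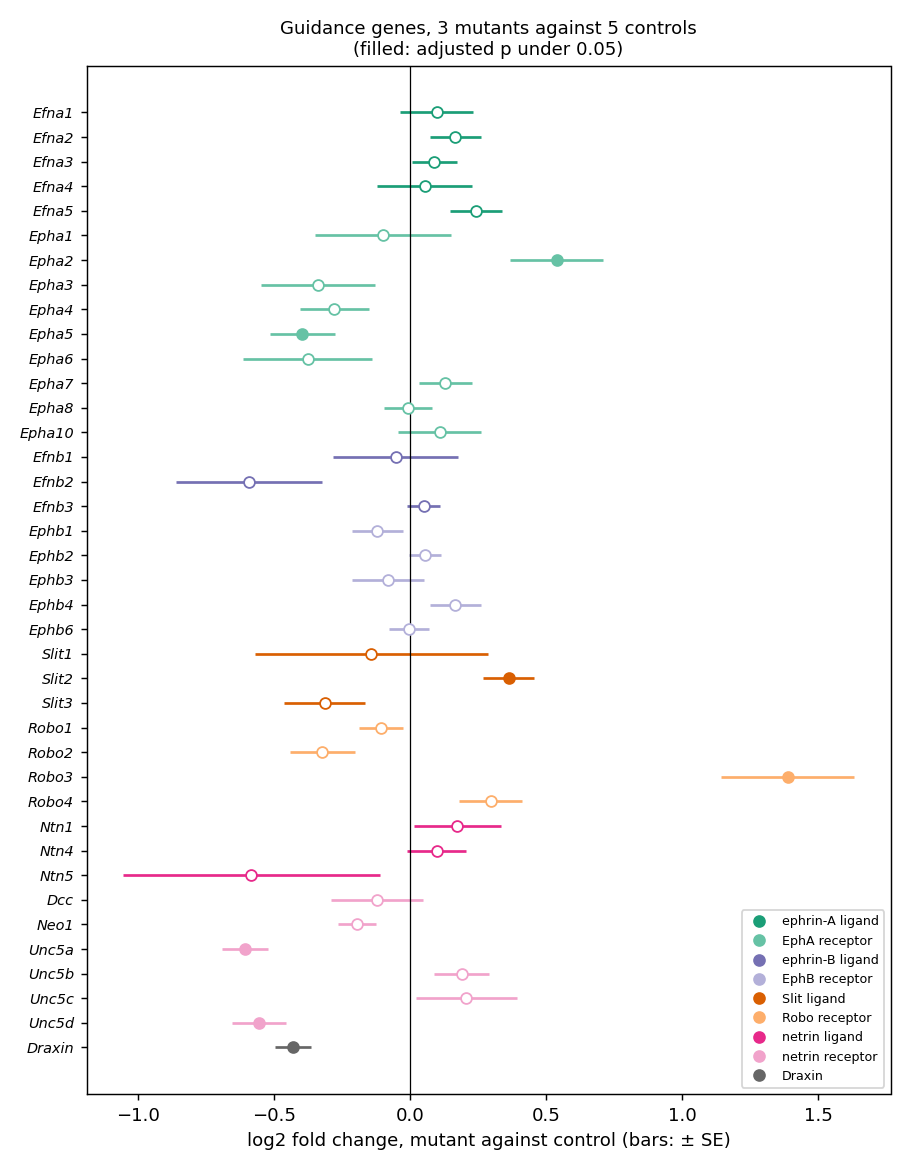
Log2 fold change of each guidance gene in 3 mutants against 5 controls, with its standard error, coloured by class (filled points have an adjusted p under 0.05). Robo3 lies far to the right at 1.39, Unc5a, Unc5d, Draxin and Epha5 lie to the left, and no EphB receptor, ephrin or netrin is filled.

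Robo3 had the largest log2 change of the 39 genes in this fit. It encodes the divergent Robo receptor that commissural neurons need for their axons to cross the midline (ENSMUSG00000032128.15; GRCm38 chromosome 9, 37415669 to 37433246, minus strand). Mutants 260-1, 195-3 and 303-2 had 41.9, 39.8 and 51.0 CPM. In controls it was 29.5 and 27.8 CPM at E13.5 (260-2 and 260-3) and 12.2, 11.8 and 15.0 CPM at E14.5 (195-2, 195-6 and 303-3). The groups did not overlap, and the gap was widest at E14.5. Mutants averaged 44.2 ± 5.95 CPM (SD, n = 3) against 19.2 ± 8.67 CPM in controls (n = 5), with a log2 fold change of 1.39 (SE 0.24, edgeR adjusted p = 0.0103). Within litters the mutant exceeded its controls by 0.55 on the log2 scale in litter 260, 1.73 in litter 195 and 1.76 in litter 303. The call held in 17 of 18 alternatives, with log2 changes of 1.14 to 1.81, and missed the threshold without the stage covariate (adjusted p = 0.0507). Without the libraries low in Hox genes, mutant 260-1 and control 195-6, the log2 change was 1.74 (adjusted p = 0.00072). With mutant 260-1 left out, all mutants of that fit were at E14.5, where the gap was widest. That fit called 3 guidance genes higher and 5 lower, against 5.64% and 5.65% of all genes (11.3% in all). The midbrain and thalamus sum moved in the same direction in each mutant, and its part in the Robo3 difference was not tested.

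The promoter windows of the 3 called genes whose groups did not overlap, Robo3, Unc5a and Draxin, are shown because these genes carried the clearest differences. They are RefSeq windows on GRCm38.p6 from 250 bases before to 50 after the start, read 5′ to 3′ on the gene's strand, from chr9:37433126-37433425 (minus), chr13:54949161-54949460 (plus) and chr4:148130649-148130948 (minus). Capitals mark the GC box GGGCGG on either strand, a sequence bound by SP family factors, with overlapping matches run together.
Robo3: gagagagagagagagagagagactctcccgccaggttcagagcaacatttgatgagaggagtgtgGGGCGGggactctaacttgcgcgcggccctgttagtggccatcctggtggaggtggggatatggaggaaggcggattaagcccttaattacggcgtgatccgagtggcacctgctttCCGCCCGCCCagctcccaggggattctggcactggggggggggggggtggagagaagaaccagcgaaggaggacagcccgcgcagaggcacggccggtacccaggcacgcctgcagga
Unc5a: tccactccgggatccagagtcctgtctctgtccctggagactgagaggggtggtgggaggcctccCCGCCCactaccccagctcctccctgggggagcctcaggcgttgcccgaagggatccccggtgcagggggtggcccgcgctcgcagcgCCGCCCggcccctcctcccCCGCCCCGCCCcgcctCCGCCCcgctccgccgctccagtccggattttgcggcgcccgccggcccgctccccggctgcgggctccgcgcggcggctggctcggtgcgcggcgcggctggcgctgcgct
Draxin: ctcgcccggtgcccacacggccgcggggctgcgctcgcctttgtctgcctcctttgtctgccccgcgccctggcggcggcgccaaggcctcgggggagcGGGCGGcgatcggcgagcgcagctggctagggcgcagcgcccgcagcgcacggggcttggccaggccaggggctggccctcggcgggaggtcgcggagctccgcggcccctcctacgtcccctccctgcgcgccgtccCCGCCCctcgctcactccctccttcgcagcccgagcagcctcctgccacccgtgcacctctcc
The GC box occurred 3 times in the Robo3 window, 5 times in that of Unc5a and 2 times in that of Draxin, and in 35.7% of all 32851 windows. All 3 windows were rich in CpG, with 17, 37 and 39 against a median of 7 over all windows. Windows of guidance genes that were not called ran from 2 CpG and 0 GC boxes (Robo4) to 56 and 6 (Epha8). Neither trait therefore sets these 3 genes apart from the other guidance genes. The homeodomain core TAATTA, searched on both strands, occurred once in the Robo3 window and in neither of the others shown, and in 5.3% of all windows. It also occurred in windows of Epha5, which was called, and Efna1, which was not. RefSeq windows were found for 34 of the 39 genes and 6 of the 7 called.

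Among the other Slit and Robo genes only Slit2 passed the test. Slit2, a secreted midline repellent (ENSMUSG00000031558.15; chromosome 5, 47983138 to 48307733, plus strand), was at 75.1, 83.6 and 82.9 CPM in mutants 260-1, 195-3 and 303-2. In controls it was 76.7, 63.7, 58.4, 56.5 and 61.1 CPM in 260-2, 260-3, 195-2, 195-6 and 303-3. The E14.5 groups were separate, whereas at E13.5 the mutant lay between its controls. Mutants averaged 80.5 ± 4.74 CPM (n = 3) against 63.3 ± 8.00 CPM in controls (n = 5), with a log2 fold change of 0.36 (SE 0.09, adjusted p = 0.0252). The call was lost without control 195-2 (adjusted p = 0.0712), mutant 195-3 (0.0505), mutant 303-2 (0.110) or control 303-3 (0.0615), and with upper quartile scaling (0.0526) or no stage covariate (0.0608).

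Slit1, a repellent made by neurons of the forebrain and midline, did not pass (log2 change -0.14, SE 0.43, adjusted p = 0.846). It was at 207 CPM in mutant 195-3 and 216 in control 195-6, whereas the other 6 libraries ranged from 69.3 to 103 CPM, so 2 embryos of litter 195 with different genotypes shared a high level. Slit3 was at 6.01 to 9.08 CPM in mutants versus 7.66 to 11.3 CPM in controls (log2 change -0.31, adjusted p = 0.157). Robo2, the main Slit receptor of many forebrain axons along with Robo1, was at 180.0, 247 and 176 CPM in mutants versus 205 to 282 CPM in controls, and its log2 change of -0.32 (SE 0.12) had an adjusted p of 0.0811. Without mutant 195-3 it was called lower (log2 change -0.49, adjusted p = 0.0066), and DESeq2 called it lower as well (adjusted p = 0.0392). Robo1 ranged from 226 to 253 CPM in mutants versus 213 to 276 CPM in controls (log2 change -0.11, adjusted p = 0.381).

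Robo4, which is expressed in blood vessels rather than neurons, was at 10.4 to 13 CPM in mutants versus 8.34 to 9.92 CPM in controls (log2 change 0.30, adjusted p = 0.0923; called once the length and GC offset was applied, adjusted p = 0.0297). The 9 endothelial genes summed to 242 to 338 CPM in mutants versus 253 to 299 CPM in controls, with 1 called higher and 0 lower. The part of vessel content in the Robo4 values was not tested.

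Netrin receptors and Draxin held 3 of the 4 genes that fell. Unc5a, a netrin receptor that mediates repulsion (ENSMUSG00000025876.15; chromosome 13, 54949411 to 55006018, plus strand), reached 24.4, 25.2 and 28.3 CPM in mutants 260-1, 195-3 and 303-2. Controls 260-2, 260-3, 195-2, 195-6 and 303-3 were at 31.9, 37.6, 41.1, 42.4 and 43.1 CPM. Every mutant lay below every control at both stages. Mutants averaged 26.0 ± 2.07 CPM (n = 3) against 39.2 ± 4.62 CPM in controls (n = 5), with a log2 fold change of -0.61 (SE 0.09, adjusted p = 0.00346). The change was -0.51, -0.73 and -0.61 in litters 260, 195 and 303, and the call held in 18 of 18 alternatives, with log2 changes of -0.66 to -0.53. Hk3, which overlaps the 3′ end of Unc5a on the opposite strand, was at 1.32 CPM in mutants and 1.49 in controls.

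Draxin (ENSMUSG00000029005.4; chromosome 4, 148098437 to 148130698, minus strand), whose loss in mice disrupts forebrain commissures, was at 120, 124 and 143 CPM in mutants 260-1, 195-3 and 303-2. In the 5 controls it lay within a narrow band of 170 to 178 CPM, with no overlap. Mutants averaged 129 ± 12.5 CPM against 173 ± 3.25 CPM in controls, with a log2 fold change of -0.43 (SE 0.07, adjusted p = 0.00451), which held in 18 of 18 alternatives (-0.51 to -0.32). The within-litter changes were -0.52, -0.50 and -0.25 for litters 260, 195 and 303. Draxin and Mad2l2 overlap head to head on opposite strands, and the libraries do not mark the strand. Mad2l2 was at 38.6 CPM in mutants versus 42.6 CPM in controls (log2 change -0.13, adjusted p = 0.257).

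Unc5d, a netrin receptor family member of cortical and other neurons (ENSMUSG00000063626.6; chromosome 8, 28646717 to 29219636, minus strand), was at 36.7, 44.5 and 40.8 CPM in mutants 260-1, 195-3 and 303-2. It was at 54.8 and 44.2 CPM in controls 260-2 and 260-3, and 73.9, 64.3 and 59.0 CPM in controls 195-2, 195-6 and 303-3. Only mutant 195-3 reached the lowest control. Mutants averaged 40.7 ± 3.89 CPM against 59.3 ± 11.04 CPM in controls, with a log2 fold change of -0.56 (SE 0.10, adjusted p = 0.00777), lost only without the stage covariate (adjusted p = 0.0547). The 2 other Unc5 receptors did not pass, with log2 changes of 0.19 for Unc5b (adjusted p = 0.201) and 0.21 for Unc5c (0.457). With the length and GC offset Unc5b was called higher (log2 change 0.33, adjusted p = 0.0395).

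Dcc, the receptor for attraction to netrin-1, was at 69.0 to 91.3 CPM in mutants versus 69.2 to 116 CPM in controls, overlapping widely (log2 change -0.12, SE 0.17, adjusted p = 0.638). Neo1 was at 218, 247 and 259 CPM in mutants 260-1, 195-3 and 303-2, against 259 and 218 CPM in the E13.5 and 290 to 303 CPM in the E14.5 controls (log2 change -0.20, adjusted p = 0.0733). DESeq2 (adjusted p = 0.0335), upper quartile scaling (0.0314) and leaving out control 260-3 (0.0233) each called it lower. Ntn4, a netrin of basement membranes, and the scarce Ntn5 did not pass (log2 changes 0.10 and -0.58, adjusted p = 0.550 and 0.399).

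**Figure D4:**
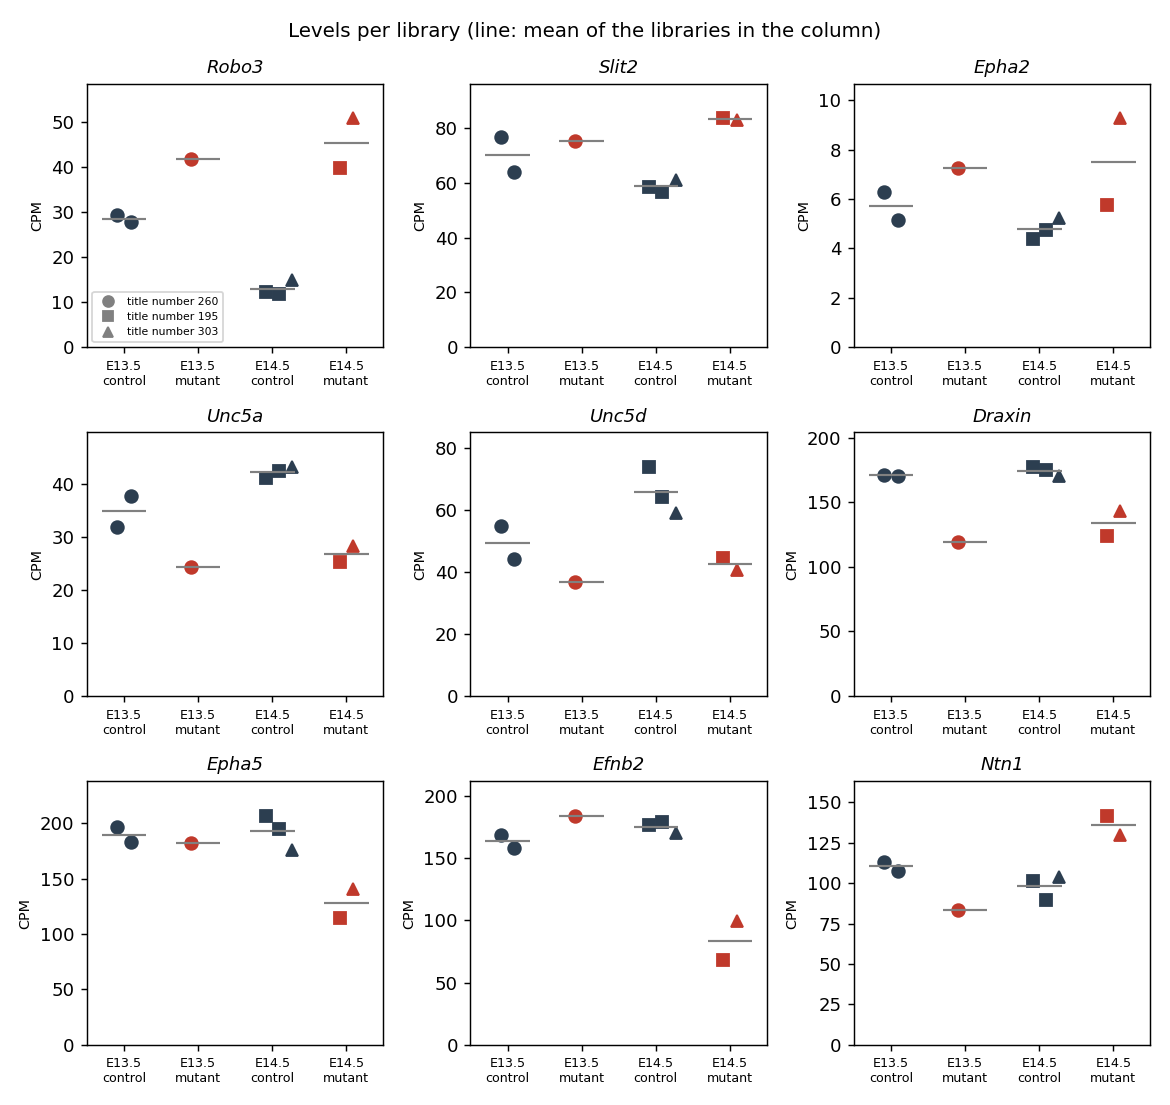
CPM of 9 guidance genes in each library, by stage and genotype (points are libraries, shapes the middle number of the title, grey lines the mean of a column). Robo3 drops from E13.5 to E14.5 in controls and not in mutants, Unc5a and Draxin are lower in each mutant than in any control, and Efnb2 and Epha5 are low in the E14.5 mutants alone.

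Eph receptors of the A class moved in both directions. Epha5, a receptor of topographic mapping (ENSMUSG00000029245.16; chromosome 5, 84054761 to 84417382, minus strand), had 183, 115 and 141 CPM in mutants 260-1, 195-3 and 303-2, and 176 to 207 CPM in controls. Its 2 E14.5 mutants lay below all controls, and the E13.5 mutant lay within their range. The log2 change was -0.40 (SE 0.12, adjusted p = 0.0435). The call was lost in 10 of 18 alternatives. Among these were the length and GC offset (adjusted p = 0.0906) and the fits without mutant 195-3 (0.0525), mutant 303-2 (0.121), control 260-2 (0.0685), control 195-2 (0.0979), control 195-6 (0.0737) or control 303-3 (0.0792).

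Epha2, a receptor known from epithelia and vessels as well as neural progenitors (ENSMUSG00000006445.3; chromosome 4, 141301240 to 141329384, plus strand), was at 7.28, 5.76 and 9.28 CPM in mutants 260-1, 195-3 and 303-2 and at 4.40 to 6.27 CPM in controls. Mutant 195-3 lay inside the control range. The log2 change of 0.54 (SE 0.17) had an adjusted p of 0.0495, and 13 of 18 alternatives lost the call, among them the fits without mutant 260-1 (0.0671), mutant 303-2 (0.244), and each of controls 260-2 (0.0634), 260-3 (0.0808), 195-2 (0.126), 195-6 (0.0823) and 303-3 (0.0895). Without mutant 303-2 the log2 change was 0.29.

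Epha3 and Epha4, receptors of axon sorting and of midline and motor axon choice, did not pass over all samples, with log2 changes of -0.34 (adjusted p = 0.289) and -0.28 (0.146). Epha3 had 112, 47.4 and 69.1 CPM in mutants 260-1, 195-3 and 303-2, against 84.7 to 109 CPM in controls. Epha4 was at 162, 104 and 132 CPM in the same mutants and at 142 to 175 CPM in controls. For both genes the E14.5 mutants lay below all controls and the E13.5 mutant did not. Epha1, Epha6, Epha7, Epha8 and Epha10 had log2 changes between -0.38 and 0.13 and adjusted p between 0.279 and 0.961. The 5 ephrin-A ligands had log2 changes from 0.05 for Efna4 to 0.24 for Efna5 (adjusted p = 0.0939), and 0 of 5 passed by edgeR or DESeq2, with 1 (Efna5) at an unadjusted p under 0.05, as were 36.7% of all genes. Efna4 ranged from -0.18 to 0.25 over the alternatives, so its direction was not fixed.

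In the ephrin-B system the E14.5 mutants were low in Efnb2. Efnb2 encodes a transmembrane ligand of progenitors, vessels and axons (ENSMUSG00000001300.16; chromosome 8, 8617434 to 8661242, minus strand). It was at 67.9 CPM in mutant 195-3 and 99.5 CPM in mutant 303-2, and at 184 CPM in mutant 260-1. All 5 controls lay between 158 and 180 CPM, with a coefficient of variation of 4.82%. Over all samples the log2 change was -0.59 (SE 0.27, adjusted p = 0.160), while DESeq2 called it lower (adjusted p = 0.0206). It was also called lower without mutant 260-1 (log2 change -1.07, adjusted p = 0.00267), without the libraries low in Hox genes (-1.05, 0.00873) and in the E14.5 samples alone (-1.06, 0.0130). Each of these last fits leaves out mutant 260-1 and rests on mutants 195-3 and 303-2, so they are not separate checks. The low Efnb2 values stood in the 2 libraries with low telencephalon sums, 381 and 989.9 CPM. The part of telencephalon content in the Efnb2 values was not tested.

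Efnb1 had 171, 54.4 and 98.3 CPM in mutants 260-1, 195-3 and 303-2, on both sides of the control range of 87.8 to 127 CPM (log2 change -0.05, SE 0.23, adjusted p = 0.894). Efnb3 differed by 0.05 on the log2 scale (SE 0.06, adjusted p = 0.582). Of the 5 EphB receptors, which bind the ephrin-B ligands, 0 passed by edgeR or DESeq2 and 0 had an unadjusted p under 0.05, and their log2 changes lay between -0.12 for Ephb1 and 0.17 for Ephb4. Ephb2 was at 264 to 276 CPM in mutants versus 247 to 277 CPM in controls. The longest Ephb2 transcript has 10902 bases. The gene was called higher once the offset for length and GC was added (log2 change 0.32, adjusted p = 0.00708).

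**Figure D5:**
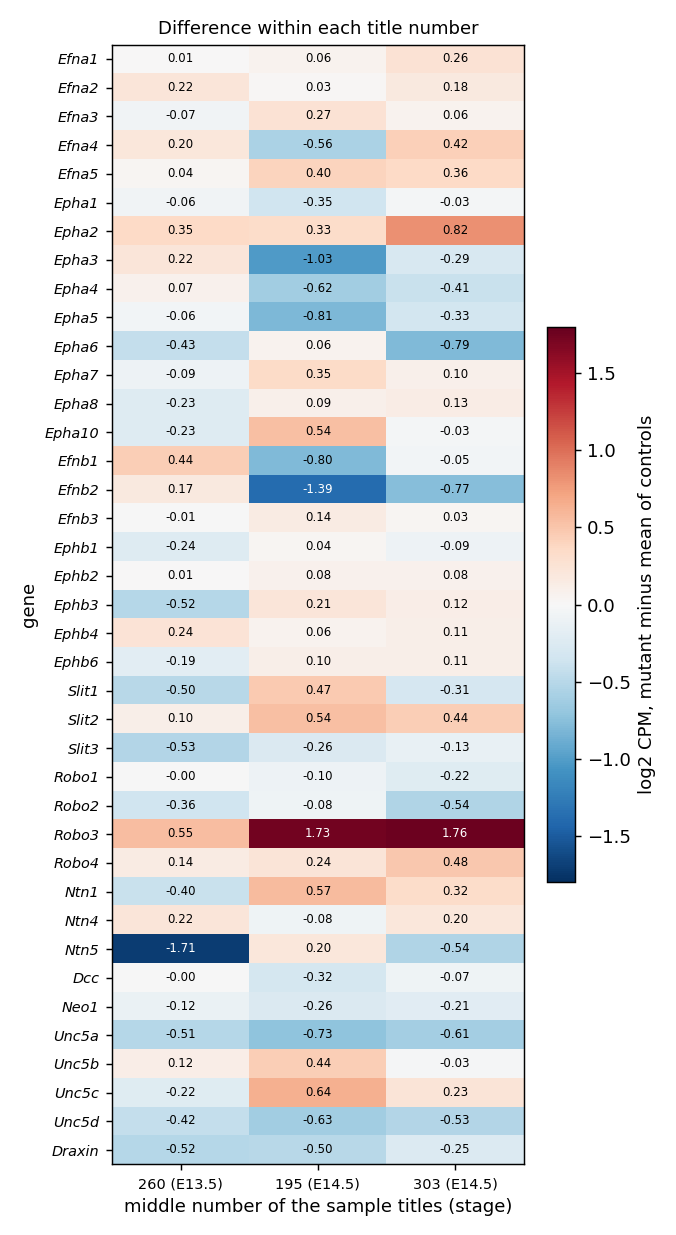
Log2 CPM of the mutant minus the mean of the controls that share its title number, for 39 guidance genes (rows, by class) and 3 title numbers (columns). Robo3 is positive and Unc5a, Unc5d and Draxin negative in every column, whereas Efnb2, Epha3 and Epha4 are negative in the E14.5 columns and slightly positive in the E13.5 column.

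In the E14.5 samples alone, 2 mutants against 3 controls, 3 guidance genes were higher (Robo3, Slit2 and Ntn1) and 7 lower (Unc5a, Unc5d, Draxin, Efnb2, Epha3, Epha4 and Epha5). This is 25.6% of the 39, against 8.72% of all genes in that fit, 4.4% higher and 4.32% lower. Ntn1, which encodes netrin-1 (ENSMUSG00000020902.12; chromosome 11, 68209364 to 68400823, minus strand), was at 142 and 130 CPM in mutants 195-3 and 303-2 and at 101.3, 89.7 and 104 CPM in the E14.5 controls. In mutant 260-1 it was at 83.3 CPM, below its litter's controls at 113 and 108 CPM. This value and the 89.7 CPM of control 195-6 were its lowest, and both libraries were low in Hox genes. The part of this in the Ntn1 values was not tested. The E14.5 log2 change was 0.47 (SE 0.09, adjusted p = 0.0242), and over all samples 0.17 (0.466). The log2 changes of Epha3 and Epha4 at E14.5 were -0.67 (adjusted p = 0.0462) and -0.48 (0.0433). The telencephalon sum differed between these groups too (381 and 989.9 CPM against 1692 to 1981 CPM), and its part in these 10 differences was not tested.

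The interaction of genotype with stage, which rests on 1 mutant at E13.5, called 0 of the 39 genes by edgeR, where 0.104% of all genes were called, 0.023% higher and 0.0807% lower. At an unadjusted p under 0.05 there were 9 of the 39, against 1622 of all 17357 genes (9.34%). DESeq2 called 3 of the 39, Ntn1 and Robo3 as higher and Efnb2 as lower at E14.5, where it called 0.991% of all genes higher and 0.34% lower (1.33% in all). By edgeR the difference of the mutant effect, E14.5 minus E13.5, was 0.87 on the log2 scale for Ntn1 (SE 0.15, adjusted p = 0.0859), 1.26 for Robo3 (SE 0.24, 0.105) and -1.24 for Efnb2 (SE 0.23, 0.102). The only E13.5 mutant, 260-1, was also low in Hox genes, with a sum of 0.407 CPM against 268.7 and 284.2 CPM in its stage's controls. The part of this in the interaction values was not tested. Leaving out an E14.5 mutant leaves 1 mutant at each stage. The spread then comes from the controls alone, and the lone mutants are assumed to vary like them. Under that assumption the same 3 genes passed without mutant 195-3 (adjusted p = 0.0263, 0.00481 and 0.00341), where 0.686% of all genes were called. Without mutant 303-2 they were called together with Efnb1, Epha3, Epha4, Epha5 and Ephb3, and the share called over all genes was 5.95%.

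From E13.5 to E14.5, over both genotypes, 1 guidance gene rose and 1 fell by edgeR, where 3.26% of all genes were called, 2.24% higher and 1.01% lower. Epha8, an EphA receptor of midbrain and other neurons (chromosome 4, 136929419 to 136956816, minus strand), rose from 20.0, 23.6 and 23.2 CPM in mutant 260-1 and controls 260-2 and 260-3 to between 30.7 and 35.5 CPM in the 5 E14.5 libraries (log2 change 0.58, SE 0.09, adjusted p = 0.0302). Ntn4 fell from 24.0, 19.3 and 22.0 CPM in the same E13.5 libraries to between 13.4 and 17.1 CPM (log2 change -0.55, SE 0.11, adjusted p = 0.0400). Neither pair of groups overlapped, but the share of all genes that separate by stage in this way was not counted, so nothing is read from this. Both calls were lost without mutant 260-1 (adjusted p = 0.105 for Epha8 and 0.215 for Ntn4), control 260-2 (0.0940 and 0.0971), control 260-3 (0.0887 and 0.0987), control 195-2 (0.125 and 0.137) or control 303-3 (0.125 and 0.126). These fits called few or none of all genes: 0.113%, 0.0579%, 0%, 0% and 0% in the same order. DESeq2 called 6 guidance genes higher and 4 lower for stage, against 8.21% and 5.44% of all genes (13.7% in all). The length and GC offset gave 1 higher and 2 lower, against 3.34% and 2.04% (5.38% in all). Without the libraries low in Hox genes Epha8 (adjusted p = 0.0868) and Ntn4 (0.0889) were not called and Robo3 was called lower (log2 change -1.08, adjusted p = 0.0396), where 0.16% of all genes were, 0.12% higher and 0.0401% lower. Each stage difference is also a difference between 1 litter and 2 others, and stage and litter cannot be told apart. Between the 2 E14.5 litters, 0 of the 39 genes and 0% of all genes were called by edgeR. There 4 of the 39, against 501 of all 17415 genes (2.88%), had an unadjusted p under 0.05. DESeq2 called 0 of the 39 and 0.0632% of all genes.

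Among controls alone, 2 at E13.5 and 3 at E14.5, 1 guidance gene was higher at E14.5 (Epha8) and 4 were lower (Robo3, Ntn4, Efnb1 and Ephb3), where 5.49% of all genes in that fit were called, 3.22% higher and 2.27% lower. Robo3 fell most, from a mean of 28.6 CPM to 12.99 ± 1.76 CPM (log2 change -1.15, SE 0.12, adjusted p = 0.000177). Efnb1 fell by 0.38 and Ephb3 by 0.43 on the log2 scale (adjusted p = 0.0197 and 0.0193). Over both genotypes Robo3 did not pass for stage by edgeR (log2 change -0.72, adjusted p = 0.126), whereas DESeq2 called it lower (adjusted p = 0.0102). The E14.5 mutants were at 39.8 and 51.0 CPM and the E13.5 mutant at 41.9 CPM.

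Genes that act with these receptors were counted on 3 lists, beside the 10.9% of all genes higher and 9.74% lower. Of 31 partners and effectors of Eph receptors, 2 rose and 10 fell, with a median log2 change of -0.10. Ngef, the Eph-activated RhoA exchange factor ephexin, was at 9.27 ± 2.98 CPM in mutants versus 16.6 ± 4.64 CPM in controls (log2 change -0.89, adjusted p = 0.00333). Grip2, an adaptor that binds ephrin-B tails and AMPA receptors, changed by -0.90 (adjusted p = 0.00224), and Arhgef15, an exchange factor of the ephexin family, by -0.59 (0.0105). Vav3, a Rac exchange factor, and Nck1, an adaptor, rose by 0.64 and 0.41 (adjusted p = 0.00696 and 0.0164).

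Of 25 genes of Slit-Robo signalling, 2 rose and 7 fell (median -0.10). Ndst1, which sulfates the heparan chains that Slit needs to bind Robo, was at 122 ± 8.33 CPM in mutants versus 175 ± 22.2 CPM in controls (log2 change -0.54, adjusted p = 0.00457). The srGAP genes Srgap1 and Srgap2, whose products bind Robo tails, changed by -0.40 and -0.36 (adjusted p = 0.0177 and 0.0220). Cxcr4 and Vasp rose by 0.37 and 0.30 (0.0105 and 0.0237). Of 23 genes of netrin signalling, 0 rose by edgeR and 8 fell (median -0.04), and 2 with a positive change, Rgma and Maged1, had an unadjusted p under 0.05. Dscaml1, a relative of the netrin receptor Dscam, was at 34.6 ± 3.63 CPM in mutants versus 66.4 ± 13.9 CPM in controls (log2 change -0.93, adjusted p = 0.00392). Ablim1 and Dock1 changed by -0.59 and -0.53 (adjusted p = 0.00406 and 0.00546). With the length and GC offset the counts became 4 higher and 6 lower for Eph partners, 2 and 2 for Slit-Robo genes and 2 and 4 for netrin genes. The fit with the offset called 11.2% of all genes higher and 7.71% lower. Without the libraries low in Hox genes, 1 of the Slit-Robo genes was higher and 4 lower. That fit called 5.64% of all genes higher and 5.65% lower.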

How the data were processed

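RNA was isolated from embryonic brain with a column kit and prepared with TruSeq RNA chemistry, which does not mark the strand, per the labels' protocols. The submitters' processing notes list edgeR 3.4.2, HTSeq 0.5.4p5 and TopHat2 2.0.9, and mm10 and GRCm38 as builds, without their roles. The deposited table holds expected counts (estimated reads per gene, not normalised), exactly whole in 66.0% to 68.9% of all values per library and 47.1% to 49.3% of those above 0, although HTSeq writes whole numbers; the sources used here do not name the step that gave fractions. Identifiers matched GENCODE M21 (GRCm38) for 34652 of 34866 genes.

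Expected counts were rounded and tested in R 4.3.3 with edgeR 4.0.16 (filterByExpr with minimum count 10, TMM, robust quasi-likelihood F test, Benjamini-Hochberg over 17357 genes, threshold 0.05), with stage and genotype in the model. Log2 CPM used a prior count of 2. Alternatives were other scaling factors, no filter, DESeq2 1.42.0, a length and GC offset per library (splines of 5 degrees of freedom), other covariates, and leaving libraries out. P-values measure the spread between embryos.

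The members and lists were chosen with earlier results of these data known. The named genes are all members: in full those called for genotype or stage, with fixed partners, and up to 3 per direction on each list of other pathway genes. The promoter windows come from RefSeq. Markers of the telencephalon, midbrain and thalamus, hindbrain and cord, neurons and endothelium are given with the results; those of floor plate (4 of 8 genes higher, 0 lower), progenitors (4 of 8 higher, 0 lower), mural and mesenchymal cells (1 of 8 higher), blood (1 of 6 higher) and choroid plexus (1 of 5 higher) were also counted.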

Additional observations from a re-analysis of the deposited data

Results flagged for a closer look

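In 3 guidance genes 1 control stood apart from the other 4 by more than Dixon's 95% limit; chance alone flags about 1 in 20 groups, and 39 groups of controls were examined. Slit1 was at 216 CPM in control 195-6, against 95.4 to 103 CPM in the other controls, and mutant 195-3 was at 207 CPM. Robo1 was at 213 CPM in control 260-3, against 262 to 276 CPM in the others. Efna2 was at 31.2 CPM in control 195-2, against 36.0 to 37.8 CPM in the others.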

How the results depend on the processing

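Of the 7 guidance genes called for genotype, Unc5a and Draxin passed in all 18 alternatives, Robo3 and Unc5d in 17, Slit2 in 12, Epha5 in 8 and Epha2 in 5, and no call reversed. In place of 3 higher and 4 lower, the counts were 1 higher with upper quartile factors, 6 higher with the length and GC offset, 6 higher with the replicate block together with that offset, 0 higher and 2 lower without the stage covariate, 7 lower with DESeq2 and 7 lower in the E14.5 samples. Of all genes these fits called 19.2%, 18.9%, 15.2%, 8.52%, 25.1% and 8.72%, in the same order, against 20.6% in the main fit. Leaving out 1 library gave 1 to 3 higher and 3 to 7 lower. With the litter number as a replicate block 2 were higher (Epha2 lost, adjusted p = 0.056) and 3 lower (Epha5 lost, 0.0734), where 15.5% of all genes were called. Deviations of same-numbered mutants and controls from their group means correlated at 0.202, 0.032 and 0.15 in litters 260, 195 and 303. Mutants 260-1 and 303-2 correlated best with their own litter's controls, but mutant 195-3, at 0.233, with the control of litter 303. The main fit did not pair the samples by these numbers, and the correlations do not show that littermates are unpaired. For stage, in place of 1 higher and 1 lower, the counts were 2 higher without the filter, 6 higher and 4 lower with DESeq2, 2 lower with the offset, 4 lower in controls alone and 0 higher without the libraries low in Hox genes, and 0 to 3 higher and 0 to 2 lower without 1 library. The stage calls over all genes were 3.57% without the filter and 0% to 8.22% without 1 library, against 3.26% in the main fit. For the interaction, in place of 0 and 0, they were 2 higher and 1 lower without the filter and with DESeq2, and 0 to 3 higher and 0 to 5 lower without 1 library. The interaction calls over all genes were 0.58% without the filter and 1.33% with DESeq2, against 0.104% in the main fit. The lists of other pathway genes became 4 higher and 6 lower (Eph), 2 lower (Slit-Robo) and 2 higher and 4 lower (netrin) with the offset, and 1 higher and 4 lower (Slit-Robo) without the libraries low in Hox genes. Of all genes, the offset fit called 11.2% higher and 7.71% lower, and the fit without the libraries low in Hox genes 5.64% and 5.65%. The causes were not tested. Over all genes the genotype calls ranged from 7.66% without control 195-2 to 28.3% without mutant 195-3. Counts were lowest for Ntn5, at 3 to 29 per library, where depth limits any comparison.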
